A study of Homo sapiens with 36 samples.

Results

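A549 cells exposed to cigarette smoke extract (CSE) at 5% for 3 weeks were set against A549 cells kept for 3 weeks without CSE, each group with 3 of the 36 arrays of the series. The line was derived from a lung adenocarcinoma and keeps traits of the alveolar type II cell. CSE is smoke bubbled through culture medium, and 5% is its share of the medium. Both groups grew in DMEM with 1% of fetal bovine serum and were subcultured weekly, and the CSE medium was renewed every 24 hours. The labels call the 3 arrays of a group biological replicates, and the study calls them individual experiments. The p-values therefore cover the spread between arrays of a group, estimated in 1 fit over all 36 arrays of the series. The comparison was made over all 18417 genes with 1 symbol. Exposure at 1% and 10% for 3 weeks, and at 5% for 1 and 5 weeks, was compared only to place it.

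Smoke contains polycyclic aromatic hydrocarbons, which bind the aryl hydrocarbon receptor (AHR), a transcription factor that turns on cytochrome P450 genes. It also contains aldehydes and oxidants, which release the transcription factor NRF2 from its repressor KEAP1 and activate NF-kB, the factor behind many cytokine genes. A549 cells carry a KEAP1 mutation, so their NRF2 is active without any exposure. Injured alveolar epithelial cells are known to secrete chemokines and to activate TGF-beta, the main growth factor of lung fibrosis. Under TGF-beta, epithelial cells can take on mesenchymal genes, in what is called epithelial to mesenchymal transition (EMT).

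The values are normalized log2 intensities, so a difference of 1 is a doubling. Of 5 epithelial markers of A549 cells none rose and 2 fell slightly. KRT18, a keratin of simple epithelia, measured 13.20, 13.24 and 13.23 in CSE 5% cells, against 13.48, 13.53 and 13.42 in control cells (log2 fold change -0.25 ± 0.06, adjusted p = 0.0019), and its partner KRT8 had a log2 fold change of -0.17 ± 0.06 (adjusted p = 0.032). KRT8 did not pass the test in 10 of 18 alternatives, and neither gene did after the housekeeping centring described below or in a fit of the 6 arrays alone. None of 7 fibroblast, 5 leukocyte or 5 endothelial markers was higher with CSE, and the only change among them was lower CD68. CD68 measured 9.51, 9.77 and 9.64 in CSE 5% cells, against 10.34, 10.69 and 10.29 in control cells (log2 fold change -0.80 ± 0.12, adjusted p = 1.2e-05). The surfactant gene SFTPB averaged 6.10 in CSE 5% cells and 6.17 in control cells, and the type II cell factor NKX2-1 averaged 5.47 in CSE 5% cells and 5.60 in control cells. Levels of different probe sets cannot be compared, so these averages do not say whether the defining genes of alveolar type II cells were expressed. The first principal component of the 6 arrays held 62.7% of their variance. On it the CSE 5% arrays lay at 36.47, 21.65 and 38.55, against -25.59, -41.37 and -29.72 for the control arrays. Replicate 2 was the lowest of the 3 in both groups.

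Exposure raised more genes by over 2-fold than it lowered. A gene was called when its log2 fold change was beyond 1 and B, the natural log odds that it differed, was above 0. By this rule 305 genes were called higher (1.66% of those tested) and 142 lower (0.771%). All of the called genes had no overlap between the 3 CSE 5% arrays and the 3 control arrays, while over all genes 21.2% lay wholly above and 24.2% wholly below. By adjusted p under 0.05, 2365 genes were higher (12.8%) and 2305 lower (12.5%). These last percentages are the background for the gene groups below, in which "rose" and "fell" mean an adjusted p under 0.05. The median log2 fold change over all genes was -0.05, and 31 called genes were above 2 and 17 below -2. Centred on the changes of 21 housekeeping genes, which had a shift of -0.128, the calls split into 452 higher and 102 lower. By adjusted p, 3875 genes were then higher and 1248 lower.

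**Figure D1:**
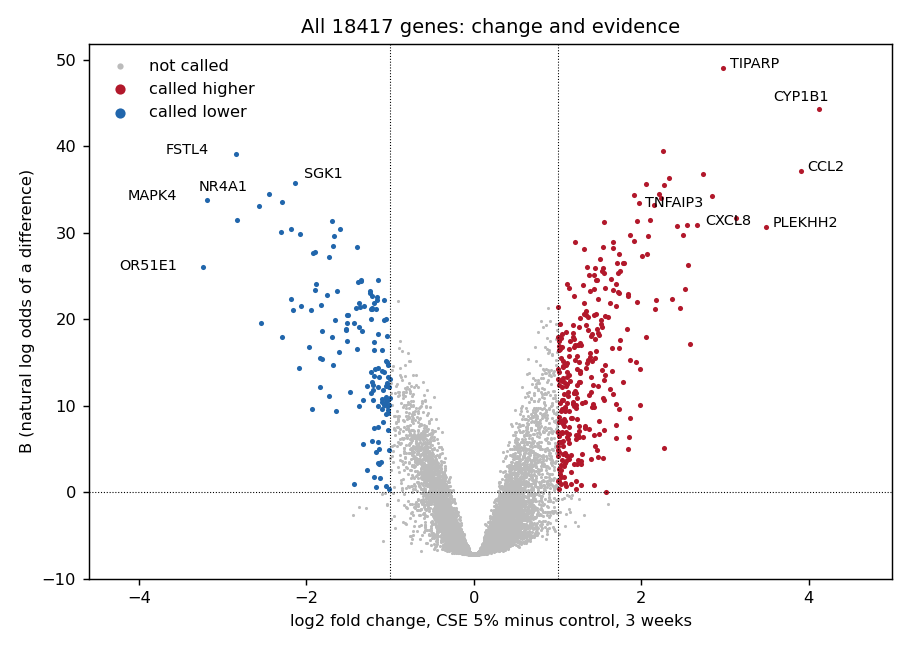
Log2 fold change of CSE 5% over control at 3 weeks (x axis) and B, the natural log odds of a difference (y axis), for 18417 genes, each a point. The 305 genes called higher (red) include TIPARP and CYP1B1 at the top right, and the 142 called lower (blue) include OR51E1 and MAPK4 at the far left; dotted lines mark the thresholds.

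Genes of the AHR pathway held the 2 highest values of B in the comparison, those of TIPARP and CYP1B1. Of its 12 listed genes 10 were measured, 8 rose and none fell, with a median log2 fold change of 0.49. This became 5 of 10 without CSE 5% replicate 2 or without CSE 5% replicate 3. Over all genes 2252 and 1722 rose in these fits, against 2365. TIPARP, an ADP-ribosyltransferase that is a target and a repressor of AHR, had log2 intensities of 12.12, 12.13 and 12.15 in CSE 5% cells, against 9.17, 9.08 and 9.22 in control cells. The groups lay far apart and the exposed arrays were almost equal (log2 fold change 2.98 ± 0.07, adjusted p = 1.8e-22). CYP1B1, which oxidizes polycyclic hydrocarbons, had log2 intensities of 12.39, 12.14 and 12.41 in CSE 5% cells, against 8.28, 8.08 and 8.20 in control cells. This was a 17.5-fold increase, the largest of all genes called (log2 fold change 4.13 ± 0.12, adjusted p = 3.5e-20). CYP1A1, the classical AHR target, measured 6.63, 6.74 and 6.69 in CSE 5% cells, against 5.67, 5.47 and 5.73 in control cells. Its 3 exposed arrays lay above all controls, but the change was smaller (log2 fold change 1.06 ± 0.13, adjusted p = 3.1e-07). ARNT2, a relative of the AHR partner ARNT, also rose (log2 fold change 1.05 ± 0.13, adjusted p = 7.2e-07). AHR itself, with a log2 fold change of 0.39 (adjusted p = 0.084), and CYP1A2, with -0.26 (0.077), did not pass the test.

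The promoters of TIPARP and CYP1A1 are shown because both genes rose and because AHR with its partner binds the core letters GCGTG. The 250 bases before the gene start follow, 5′ to 3′ on the gene's strand, from RefSeq on GRCh38.p14. Capitals mark GCGTG, or CACGC where it is read on the other strand.
TIPARP, chr3:156674340-156674589, + strand: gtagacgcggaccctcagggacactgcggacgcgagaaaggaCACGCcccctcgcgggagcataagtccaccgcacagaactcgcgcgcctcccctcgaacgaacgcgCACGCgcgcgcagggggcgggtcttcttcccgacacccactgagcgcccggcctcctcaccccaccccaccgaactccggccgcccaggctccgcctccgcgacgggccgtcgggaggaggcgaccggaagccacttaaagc
CYP1A1, chr15:74725529-74725778, - strand: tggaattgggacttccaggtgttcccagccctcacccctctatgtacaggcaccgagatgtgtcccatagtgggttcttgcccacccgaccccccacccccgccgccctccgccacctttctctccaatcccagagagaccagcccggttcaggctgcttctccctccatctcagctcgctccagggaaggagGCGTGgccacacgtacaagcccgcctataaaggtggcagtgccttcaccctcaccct
TIPARP had 2 matches, at -208 and -142 from the gene start, and CYP1A1 had 1, at -57. Windows reaching from 250 bases before to 50 after the start were given for 7 of the 10 measured members, and 5 held a match on either strand. The same letters stood in 44.7% of 14237 windows of measured genes and in 36.3% of all 27305 windows, so a match is a description of these letters only.

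The antioxidant genes under NRF2 moved by small amounts. Of 28 measured genes 10 rose and 1 fell, with a median log2 fold change of 0.13. GCLC, the catalytic subunit of the enzyme that starts glutathione synthesis, measured 11.34, 11.17 and 11.45 in CSE 5% cells, against 10.68, 10.43 and 10.56 in control cells. All exposed arrays lay above the controls (log2 fold change 0.76 ± 0.15, adjusted p = 3.5e-04). The exporter ABCC3 rose by 0.75 and BACH1, a repressor of NRF2 targets, by 0.80 on the log2 scale. SLC7A11, the cystine importer, rose by 0.68, a change that did not pass the test without control replicate 2, CSE 5% replicate 1 or CSE 5% replicate 3. NQO1, a quinone reductase used as a marker of NRF2 activity, had a log2 fold change of 0.14 (adjusted p = 0.049, and not under 0.05 in a fit of the 6 arrays alone), and HMOX1, heme oxygenase 1, had -0.35 (0.16). The count of genes that rose was 5 without CSE 5% replicate 3 and 6 without CSE 5% replicate 1 or control replicate 2, and 17 after the housekeeping centring. Over all genes 1722 rose without CSE 5% replicate 3 and 3875 after the centring, against 2365. Of the other detoxification genes, CYP3A5, a drug-oxidizing P450, rose by 1.94 and the esterase CES1 by 1.13 on the log2 scale. Among 25 measured P450 genes outside the CYP1 family 8 rose and 3 fell, and among 22 ABC transporters 8 rose and 1 fell. ABCA1, the cholesterol exporter, rose by 0.91 and ABCC4, an exporter of organic anions, by 0.70.

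Inflammatory genes formed the next group. Of 16 measured NF-kB subunits and feedback targets 11 rose and none fell, with a median log2 fold change of 0.55. Of 19 chemokines 9 rose and none fell, with a median of 0.16, and of 19 interleukins and colony-stimulating factors 6 rose and none fell. CCL2, which attracts monocytes, had log2 intensities of 11.02, 11.18 and 11.02 in CSE 5% cells, against 6.97, 7.13 and 7.40 in control cells. Every exposed array was more than 3 units above every control array (log2 fold change 3.90 ± 0.15, adjusted p = 4.5e-17), a 15-fold increase. CXCL8, which attracts neutrophils, measured 10.51, 10.70 and 10.56 in CSE 5% cells, against 7.69, 7.88 and 8.21 in control cells. The control array of replicate 3 was the highest of its group and still lay far below the exposed arrays (log2 fold change 2.66 ± 0.13, adjusted p = 6.3e-15). CXCL1, another neutrophil chemokine, rose by 1.80 ± 0.11, and CCL20, which attracts dendritic cells, by 1.12 ± 0.17. CXCL10 (0.13), an interferon-induced chemokine, IL6 (-0.14) and TNF (0.11) did not pass the test.

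TNFAIP3, the enzyme A20 that switches NF-kB off, measured 8.34, 8.43 and 8.58 in CSE 5% cells, against 6.44, 6.58 and 6.43 in control cells. The groups did not overlap (log2 fold change 1.97 ± 0.09, adjusted p = 7.1e-16). IL1A, an alarm cytokine released by damaged epithelium, measured 6.78, 6.92 and 6.76 in CSE 5% cells, against 5.03, 4.92 and 4.90 in control cells. All its control arrays were near 5 and all its exposed arrays near 7 (log2 fold change 1.87 ± 0.10, adjusted p = 1.7e-14). NFKBIZ, an inducible nuclear member of the inhibitor family, rose by 1.19, TNFAIP2 by 1.37 and SOD2, the mitochondrial superoxide dismutase, by 1.02. CSF1, the macrophage growth factor, rose by 1.02 and IL32 by 1.12. Of 24 cytokine receptors 13 rose and 2 fell, with IFNGR1, the interferon-gamma receptor chain, up by 1.26, and IL4R, the interleukin 4 receptor chain, down at -0.71.

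Part of the complement system and of the interferon response moved as well, though not as a whole. C3, the central complement protein, measured 10.96, 11.04 and 11.03 in CSE 5% cells, against 8.58, 9.02 and 8.34 in control cells. The control arrays spread more than the exposed ones but stayed well below them (log2 fold change 2.37 ± 0.17, adjusted p = 1.2e-11). The proteases C1S, C1R and CFB rose by 1.72, 1.50 and 1.71, and CD55, which protects cells from complement, fell by 1.31 on the log2 scale. In all, 6 of 16 measured complement genes rose and 2 fell, with a median of 0.04. Of 30 interferon-stimulated genes 12 rose and 3 fell. SAMD9, an antiviral factor, rose by 1.58 and HERC6 by 1.01, while OAS1, a sensor of double-stranded RNA, fell by 1.24. ISG15 (-0.26), MX1 (0.17) and IFI27 (0.08), common markers of an interferon response, did not pass the test.

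**Figure D2:**
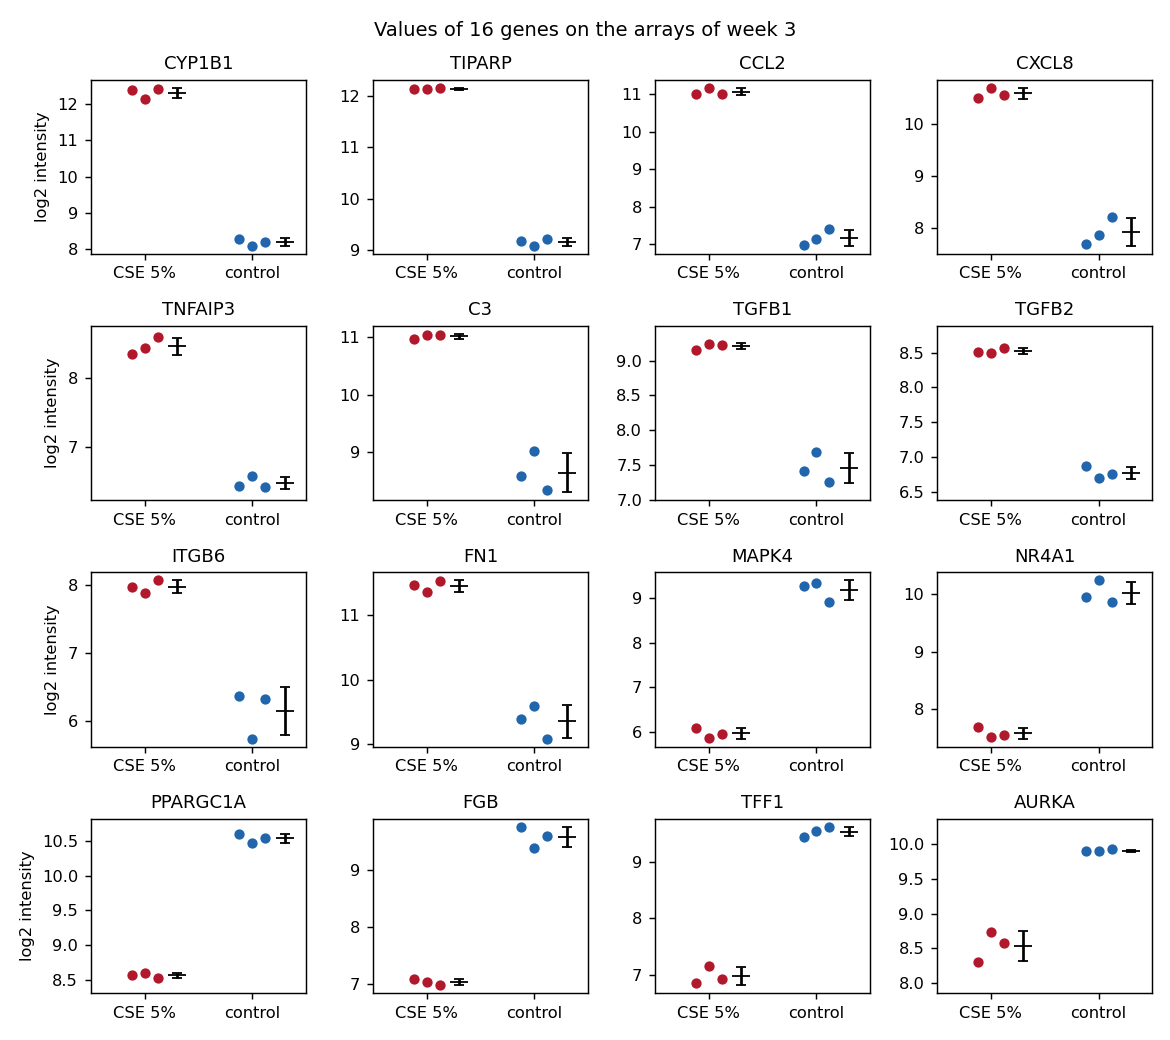
Log2 intensity (y axis) of 16 genes on the 3 CSE 5% arrays (red, left) and the 3 control arrays (blue, right) of week 3, with the mean and SD of each group beside the points. In each gene the groups do not overlap, with CSE 5% above control from CYP1B1 to FN1 and below it from MAPK4 to AURKA; each panel has its own scale.

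Some TGF-beta ligands, receptors and activating integrins were higher after exposure. Of 21 measured TGF-beta signalling genes 10 rose and 1 fell, with a median log2 fold change of 0.28. TGFB1 measured 9.15, 9.24 and 9.22 in CSE 5% cells, against 7.42, 7.69 and 7.26 in control cells. The exposed arrays lay close together and above all controls (log2 fold change 1.75 ± 0.15, adjusted p = 6.9e-10). TGFB2 measured 8.50, 8.49 and 8.57 in CSE 5% cells, against 6.87, 6.70 and 6.76 in control cells, again with no overlap (log2 fold change 1.75 ± 0.11, adjusted p = 6.9e-13). TGFB3 had a log2 fold change of 0.17 (adjusted p = 0.41). TGFBR2, the receptor that binds the ligand first, rose by 1.01 ± 0.09 and the co-receptor TGFBR3 by 1.22 ± 0.15, while TGFBR1 had -0.15 (adjusted p = 0.57). Both of the signal transducers SMAD2 and SMAD3 changed, in opposite directions. SMAD3 rose by 1.03 ± 0.09, and SMAD2 measured 10.33, 10.08 and 10.41 in CSE 5% cells, against 11.06, 10.88 and 10.83 in control cells (log2 fold change -0.65 ± 0.09, adjusted p = 1.7e-06). The feedback inhibitor SMAD7 rose by 0.39, though not past the test without CSE 5% replicate 3, and TGFBI, a gene induced by TGF-beta in many cells, had 0.10 (adjusted p = 0.49).

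The integrins that release TGF-beta from its latent complex were among those that rose. ITGB6, the chain that pairs with ITGAV in epithelium, measured 7.98, 7.88 and 8.07 in CSE 5% cells, against 6.37, 5.74 and 6.33 in control cells. Control replicate 2 was the lowest array and no arrays overlapped (log2 fold change 1.83 ± 0.15, adjusted p = 2.5e-10). ITGAV rose by 0.96 ± 0.22 and ITGB8, another partner of ITGAV, by 1.01 ± 0.21. In all, 7 of 18 measured integrins rose and 1 fell. THBS1, a matrix protein that also activates latent TGF-beta, rose by 1.66 ± 0.09. Of 11 genes of plasminogen activation and thrombospondins 6 rose and 1 fell, among them PLAT (0.46) and PLAU (0.38), both plasminogen activators.

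Mesenchymal genes changed in part. Of 25 measured 10 rose and 3 fell, with a median log2 fold change of 0.06. Without control replicate 3 the count that fell was 5 and the median -0.04, and without CSE 5% replicate 3 the median was -0.02. FN1, fibronectin, measured 11.48, 11.36 and 11.54 in CSE 5% cells, against 9.39, 9.59 and 9.08 in control cells. The exposed arrays lay close together and the groups did not overlap (log2 fold change 2.11 ± 0.10, adjusted p = 4.3e-15). CDH6, a cadherin of developing kidney and of mesenchyme, measured 9.02, 8.84 and 9.19 in CSE 5% cells, against 5.93, 6.30 and 6.28 in control cells, with all exposed arrays far above the controls (log2 fold change 2.85 ± 0.13, adjusted p = 3.8e-16). CDH2, N-cadherin, rose by 1.31 ± 0.10, and VIM, the intermediate filament vimentin, by 0.66 ± 0.08. ACTA2, the actin of myofibroblasts, fell by 0.40 (adjusted p = 0.0064), and LOX, which crosslinks collagen, by 0.52. Among 22 collagens 4 rose and none fell, with COL12A1 the furthest at 0.95; the count was 2 when the 6 arrays were fitted alone, and also without control replicate 1 or 3 or CSE 5% replicate 1 or 3. COL1A1 (-0.06) and COL3A1 (-0.17), the fibrillar collagens of scar, did not pass the test.

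Epithelial genes changed in both directions. CDH1, E-cadherin, measured 11.11, 10.93 and 11.15 in CSE 5% cells, against 11.31, 11.23 and 10.98 in control cells. The arrays overlapped and the difference did not pass the test (log2 fold change -0.11 ± 0.08, adjusted p = 0.39). Of 24 measured junction genes 6 rose and 2 fell, with the tight junction gene CLDN1 up by 1.22 and the desmosomal gene DSC3 by 1.12. Of 14 keratins 4 rose (2 without control replicate 3) and 3 fell, KRT7 by 0.66 on the log2 scale beside KRT8 and KRT18, and only 1 fell after the housekeeping centring or in a fit of the 6 arrays alone. Of 19 EMT regulators 4 rose and 3 fell. ZEB1, a repressor of CDH1, rose by 0.90, while SNAI1 fell by 0.50, and SNAI2 (-0.02) and TWIST1 (-0.06) did not pass. The water channel AQP3 rose by 2.23 and the membrane protein CAV1 by 0.98, and 4 of 21 alveolar identity genes rose in all.

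Of 27 matrix proteases and inhibitors 6 rose and 4 fell, or 2 without control replicate 1 or 2 or CSE 5% replicate 1 or 3. MMP7, matrilysin, a protease of injured lung epithelium, measured 11.86, 11.92 and 11.75 in CSE 5% cells, against 9.37, 8.88 and 9.91 in control cells. The control arrays spread over about 1 unit, and all lay below the exposed arrays (log2 fold change 2.46 ± 0.18, adjusted p = 2.8e-11). MMP2, a gelatinase, rose by 1.26 ± 0.12 and the shedding protease ADAM17 by 0.74, while ADAM12 fell by 1.52. MMP9 had a log2 fold change of -0.22 (adjusted p = 0.095). Of the 15 measured genes that the study names for its arrays 12 rose and 1, SMAD2, fell. The study reports SMAD2 as over-expressed with CSE, the opposite of its fall here, and MMP9 as decreased. Its array results are described chiefly for 5 weeks. The list of 15 genes was chosen on these samples and is no independent evidence of direction.

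Growth factor pathways showed mixed changes. Of 35 measured genes of the BMP and activin arm 14 rose and 8 fell, and without CSE 5% replicate 3 the counts were 9 and 8. Over all genes that fit gave 1722 and 1685, against 2365 and 2305. BMP4 rose by 1.40 and its receptor BMPR1B by 1.54, while BMP6 fell by 1.88. FSTL4, a follistatin-like protein, measured 6.74, 7.0 and 6.94 in CSE 5% cells, against 9.80, 9.84 and 9.55 in control cells. Every control array was more than 2 units above every exposed array (log2 fold change -2.84 ± 0.10, adjusted p = 6.5e-18). Of 38 Wnt genes 12 rose and 5 fell, led by the receptor ROR1 at 1.94, and 3 fell without CSE 5% replicate 3. Of 15 EGF receptors and ligands 7 rose and 2 fell, with the ligands TGFA (1.23) and NRG1 (1.13) up and the receptor ERBB3 (-0.70) down; without control replicate 2 the count that rose was 4. Of 18 ERK pathway genes 7 rose and 3 fell. DUSP10, a phosphatase of stress kinases, rose by 1.43, and DUSP1, the early phosphatase of the same kinases, fell by 1.95.

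**Figure D3:**
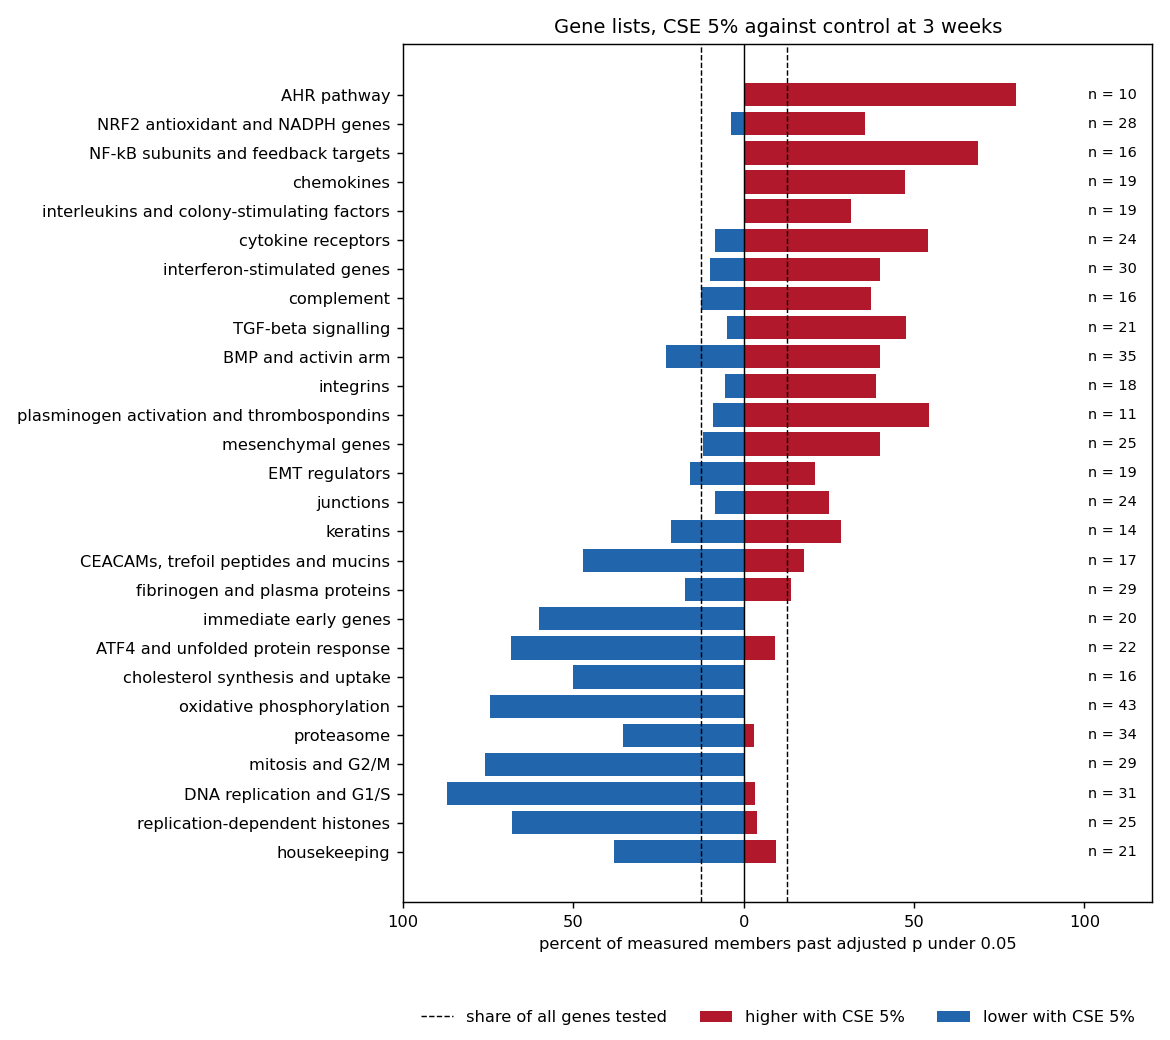
Percent of measured members of 27 gene lists that rose (red, right) or fell (blue, left) with CSE 5% at adjusted p under 0.05; n is the number measured, and the dashed lines mark the 12.8% and 12.5% of all genes tested. The AHR pathway reached 8 of 10 on the right and the DNA replication list 27 of 31 on the left. That fall was not seen with the controls of 1 and 3 weeks as one group, but these controls differed from each other in this list.

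Several of the most increased genes belonged to none of these groups. PLEKHH2, a cytoskeletal protein of kidney podocytes, measured 9.96, 9.66 and 9.89 in CSE 5% cells, against 6.38, 6.14 and 6.53 in control cells, over 3 units apart throughout (log2 fold change 3.48 ± 0.18, adjusted p = 7.3e-15). QPCT, which cyclizes the first residue of chemokines and hormones, measured 9.23, 9.37 and 9.39 in CSE 5% cells, against 5.95, 6.14 and 6.51 in control cells (log2 fold change 3.13 ± 0.15, adjusted p = 3.8e-15). CEMIP, a protein that breaks down hyaluronan, measured 9.15, 9.23 and 9.46 in CSE 5% cells, against 6.55, 6.58 and 6.51 in control cells, with tight controls far below all exposed arrays (log2 fold change 2.74 ± 0.11, adjusted p = 6.0e-17). ST8SIA4, which builds polysialic acid, rose by 2.58 ± 0.23, MAP2, a microtubule protein of neurons, by 2.55 ± 0.16, and NR5A2, a nuclear receptor, by 2.55 ± 0.13. The remaining genes among the 15 most increased were PLA2R1, a phospholipase A2 receptor (2.52), TMEM156 (2.50) and MRAP2, a partner of melanocortin receptors (2.42), beside those already given.

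The most decreased genes were of several kinds. OR51E1, an olfactory receptor found outside the nose, measured 7.05, 7.23 and 7.11 in CSE 5% cells, against 10.38, 10.38 and 10.33 in control cells. Each group was tight, and all exposed arrays lay far below the controls (log2 fold change -3.23 ± 0.20, adjusted p = 4.8e-13), and its neighbour OR51E2 fell by 2.82 ± 0.14. MAPK4, an atypical kinase of the MAP kinase family, measured 6.10, 5.87 and 5.96 in CSE 5% cells, against 9.26, 9.33 and 8.91 in control cells, with no overlap (log2 fold change -3.19 ± 0.14, adjusted p = 5.4e-16). The receptor tyrosine kinase KIT fell by 2.19 ± 0.16 and SGK1, a kinase induced by glucocorticoids, by 2.13 ± 0.09. NAALADL2 fell by 2.29 and ST6GAL2, a sialyltransferase, by 2.29.

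All 3 chains of fibrinogen, the clotting protein that A549 cells make, fell. FGB measured 7.09, 7.03 and 6.99 in CSE 5% cells, against 9.76, 9.40 and 9.60 in control cells. Every control array was more than 2 units above every exposed array (log2 fold change -2.55 ± 0.20, adjusted p = 1.3e-10). FGA fell by 2.30 ± 0.12 and FGG by 2.09 ± 0.21. Other plasma proteins mostly did not follow, since of 29 measured, fibrinogen included, 4 rose and 5 fell (3 without control replicate 2 or without CSE 5% replicate 1), and LCN2, an iron-binding defence protein, rose by 1.49. Of 17 CEACAMs, trefoil peptides and mucins 3 rose and 8 fell, with a median of -0.14. TFF1, a trefoil peptide of mucosal repair, measured 6.85, 7.16 and 6.92 in CSE 5% cells, against 9.45, 9.56 and 9.62 in control cells, with no overlap (log2 fold change -2.57 ± 0.12, adjusted p = 9.7e-16). CEACAM7 fell by 2.16, MUC13 by 1.60 and MSLN, mesothelin, fell by 1.81, whereas MUC1 rose by 0.90.

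The immediate early genes, which serum and stress switch on within minutes, were lower. Of 20 measured none rose and 12 fell, and the mean log2 intensity of the list was 8.20 in CSE 5% cells and 8.87 in control cells. NR4A1, an orphan nuclear receptor, measured 7.68, 7.51 and 7.54 in CSE 5% cells, against 9.95, 10.24 and 9.87 in control cells. All exposed arrays lay more than 2 units below the controls (log2 fold change -2.44 ± 0.11, adjusted p = 3.6e-16). Its relatives NR4A3 and NR4A2 fell by 2.18 and 1.92, KLF4 by 1.35, EGR1 by 0.98 and FOS by 0.80, while JUN (0.07) and MYC (-0.09) did not pass. Of 18 clock genes 2 rose and 6 fell, NR1D1, a repressor of the clock, by 1.22 and PER1 by 0.82.

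Genes of mitochondrial respiration fell as a group. Of 43 measured oxidative phosphorylation genes none rose and 32 fell, with a median log2 fold change of -0.52. Over the alternative fits that kept all genes, between 25 and 34 fell. The mean of the list was 9.47 in CSE 5% cells and 9.99 in control cells. PPARGC1A, the coactivator that drives mitochondrial genes, measured 8.58, 8.60 and 8.53 in CSE 5% cells, against 10.60, 10.47 and 10.54 in control cells. Each group was tight and the groups were almost 2 units apart (log2 fold change -1.97 ± 0.18, adjusted p = 1.5e-09). CYC1 and UQCRC1, subunits of complex III, fell by 1.05 and 1.03, and NDUFB10 of complex I by 0.91. TFAM, which packages mitochondrial DNA, had 0.14 (adjusted p = 0.69).

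Among stress and biosynthesis genes, those of ATF4 and the unfolded protein response were mostly lower. Of 22 measured genes of ATF4 and the unfolded protein response 2 rose and 15 fell. TRIB3, a pseudokinase induced by ATF4, fell by 0.91 ± 0.12, HERPUD1, which helps degrade misfolded proteins, by 0.65, and the chaperone HSPA5 by 0.38. Of 16 measured cholesterol genes none rose and 8 fell, with a median of -0.45; FDPS, a farnesyl diphosphate synthase, fell by 1.15 and MVD by 0.84. Of these 16 genes 11 were higher by adjusted p in control cells of 3 weeks than in those of 1 week, beside 6.52% of all genes. With the control arrays of both weeks as one group, which mixes these unlike controls, 6 fell at a median of -0.12. Over all 18417 genes 3371 fell in that fit. At 1 week, against controls of that week, 14 of the 16 fell with CSE 5% and none rose, with a median of -0.82. Of all 18417 genes 1128 fell at that time. Of 34 proteasome genes 12 fell and 1 rose, but 5 fell and 2 rose after the housekeeping centring, and 5 fell in a fit of the 6 arrays alone, 7 in one of the 12 arrays of week 3, 5 without CSE 5% replicate 1, and 6 without CSE 5% replicate 3. Of 27 glycolysis and hypoxia genes 7 rose and 10 fell; HIF1A, the oxygen-regulated factor, rose by 0.80 and PFKFB3, an activator of glycolysis, by 1.34.

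Metallothioneins, small proteins that bind zinc and other metals, did not rise. Of 12 measured genes of the list none rose and 2 fell. With 1 array left out the number that fell was between 1 and 4, highest when CSE 5% replicate 2 was left out. MT1X measured 8.63, 9.20 and 8.58 in CSE 5% cells, against 9.43, 10.22 and 9.94 in control cells, and replicate 2 was the highest of both groups (log2 fold change -1.06 ± 0.25, adjusted p = 0.0026). With the control arrays of 1 and 3 weeks as one group MT1X did not pass the test. Cadmium is part of smoke and zinc and cadmium act on these genes through MTF1, so the 250 bases before the start of MT1X are given, with matches to TGCACNC or TGCGCNC on either strand in capitals.
MT1X, chr16:56682220-56682469, + strand: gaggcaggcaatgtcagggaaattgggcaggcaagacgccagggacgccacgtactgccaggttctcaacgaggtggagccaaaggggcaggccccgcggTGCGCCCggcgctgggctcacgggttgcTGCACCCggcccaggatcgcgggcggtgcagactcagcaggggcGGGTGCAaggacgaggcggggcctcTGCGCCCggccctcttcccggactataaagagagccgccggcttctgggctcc
There were 4 matches in MT1X, at -150, -122, -78 and -53, and 35% of 14237 windows of measured genes held at least 1, against 29.3% of all 27305 windows; 5 of the 7 members with a window did. Heat shock chaperones were also not raised as a group, with 2 of 15 higher and 4 lower, and CRYAB, a small heat shock protein, fell by 1.15. Leaving out control replicate 2 or CSE 5% replicate 1 left 2 lower, housekeeping centring 1, and array weights gave 7.

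Genes of the cell cycle were lower than in the 3-week controls, and the extent of the fall depended on those controls. Of 29 measured genes of mitosis and G2/M none rose and 22 fell, with a median of -0.83, and of 31 genes of DNA replication and G1/S 1 rose and 27 fell, with a median of -0.64. AURKA, a kinase of the mitotic spindle, measured 8.30, 8.73 and 8.58 in CSE 5% cells, against 9.89, 9.90 and 9.92 in control cells, with no overlap (log2 fold change -1.37 ± 0.11, adjusted p = 1.9e-10). CDK1, the kinase that drives mitosis, fell by 0.97 ± 0.23, and the replication licensing gene MCM5 by 0.84 ± 0.14. Control cells had more of these transcripts at 3 weeks than at 1 week, with all 29 mitosis genes and all 31 replication genes higher and medians of 1.66 and 1.45, where 6.52% of all genes were higher by adjusted p. The mitosis list had a mean log2 intensity of 8.29 in CSE 5% cells of week 3, with 9.10 in controls of the same week, 7.46 in controls of week 1 and 8.40 in those of week 5. With the control arrays of 1 and 3 weeks as one group, 1 mitosis gene fell and none rose, with a median of 0.08. In that fit 2 replication genes fell and 2 rose, with a median of -0.08, where 3371 of all 18417 genes fell and 3078 rose. Those controls differ between the weeks, so that fit cannot decide whether the genes fell within week 3. At 1 week, against controls of that week, 19 mitosis genes fell with CSE 5% and none rose, with a median of -0.68. Of the replication genes 7 fell and 2 rose, with a median of -0.18, where 1128 of all 18417 genes fell. At week 3 the mean of the mitosis list went down with concentration, being 8.59 at 1%, 8.29 at 5% and 7.84 at 10%. Within that week 11 mitosis and 23 replication genes were lower with CSE 5% than with CSE 1%, beside 3.49% of all genes, and none was higher. Replication-dependent histone genes fell in 17 of 25 cases and rose in 1. These messages carry no poly(A) tail. Replicate 2 was the highest array for them in the CSE 5% group, at a mean of 8.90, with 8.37 on the lowest.

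**Figure D4:**
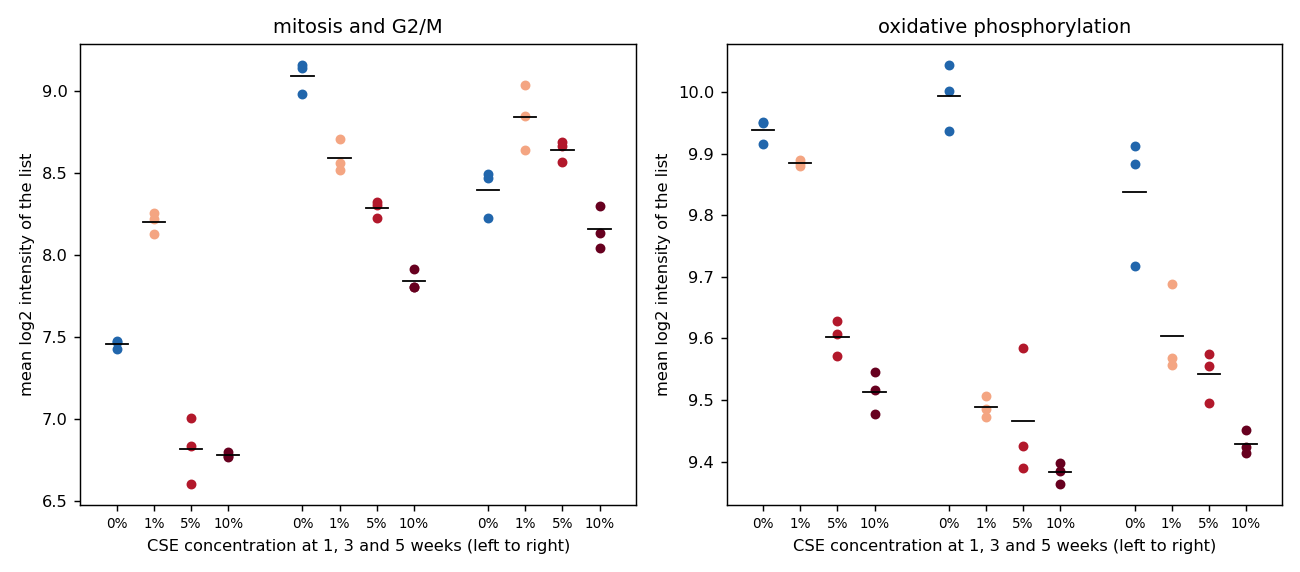
Mean log2 intensity (y axis) of 29 mitosis genes (left) and 43 oxidative phosphorylation genes (right) on every array, by CSE concentration within 1, 3 and 5 weeks, where 0% is control; black lines are group means. The 3-week controls hold the highest mitosis values of the controls, with a mean of 9.10, while the controls of 1 and 3 weeks lie together for oxidative phosphorylation.

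A list of 36 long transcripts of centrosomes, golgins and others, which can follow RNA quality, was examined beside them. Of these 8 rose and 4 fell, with a mean between 8.38 and 8.65 on the CSE 5% arrays and between 8.05 and 8.39 on the control arrays. Replicate 2 was the lowest array of both groups. Without control replicate 2 only 3 rose, without CSE 5% replicate 1 or 3 only 4, and 15 did in a fit of the 6 arrays alone. DST, a giant linker of the cytoskeleton, rose by 1.44. The part of RNA quality in other results was not tested. Of the 21 housekeeping genes 2 rose and 8 fell, and 3 fell without CSE 5% replicate 1.

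The effect of CSE 5% differed between 1 and 3 weeks for a limited set of genes. The difference between the effects at 3 weeks and at 1 week, each against its own controls, was called positive for 94 genes (0.51%) and negative for 18 (0.0977%). Between those controls 212 genes were called higher at 3 weeks than at 1 week and 71 lower. The part of the controls in the differences was not tested. CEMIP had a log2 fold change of -0.20 at 1 week and 2.74 at 3 weeks, a difference of 2.93 ± 0.15. CDH6 had 0.57 and 2.85, CYP1B1 2.10 and 4.13, and MMP2 -0.01 and 1.26. MAPK4, with -2.06 and -3.19, also moved further from control, and its difference was negative. PHGDH, the first enzyme of serine synthesis, had 1.58 at 1 week and -0.58 at 3 weeks, and NUPR1, a stress-induced nuclear protein, 1.86 and -0.15. In both of these genes the 3-week effect did not pass the test (that of PHGDH did in 6 alternative fits), and the difference did (adjusted p = 4.6e-05 and 4.2e-08). TNFAIP3 had 1.36 at 1 week, in the direction seen at 3 weeks.

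The effect differed between 3 and 5 weeks in more genes. The difference of 5 minus 3 weeks was called positive for 320 genes (1.74%) and negative for 33 (0.179%), 353 in all, and it depended on single arrays: the total was 127 without replicate 1 of the 5-week controls and 571 without their replicate 3. The titles of these control arrays say 5 weeks and were used, but all of their descriptions, and the source names of 2 of the 3, say 3 weeks, the time of the controls used above. These arrays stood apart from the other 33, at -110.7, -74.63 and -74.61 on the first principal component of all arrays. The list of long transcripts had a mean of 8.37 in CSE 5% cells and 7.16 in control cells at 5 weeks, while the 3-week controls had 8.24. In the difference between the effects 20 of its 36 genes were higher and none lower, with a median of 0.94, and the part of this in the other differences was not tested. FN1 had a log2 fold change of 2.11 at 3 weeks and 3.68 at 5 weeks, CCL2 3.90 and 5.03. CDK1 had -0.97 and 1.01, and 23 of the 29 mitosis genes had a higher effect at 5 weeks by adjusted p of the difference, beside 16.9% of all genes. TIPARP stayed near its 3-week change, at 2.75, and NR4A1 at -2.59.

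Both steps of concentration changed genes. At 3 weeks 37 genes were called higher with CSE 5% than with CSE 1% (0.201%) and 22 lower (0.119%). CCL2 was higher by 1.95 ± 0.15 and CXCL8 by 1.42 ± 0.13 with 5% than with 1%. NR4A1 had a log2 fold change against control of -0.14 at 1%, -2.44 at 5% and -2.53 at 10%, and KLF4 0.25, -1.35 and -1.88. Of the 20 immediate early genes 14 were lower with 5% than with 1% by adjusted p, beside 3.49% of all genes. MAPK4 already had -2.67 at 1%, and PLEKHH2 had 2.86. CYP1A1 had -0.05 at 1%, 1.06 at 5% and 1.60 at 10%.

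With CSE 10% no gene was called higher than with CSE 5% (0%) and 16 were called lower (0.0869%). By limma's adjusted p 35 genes were higher with 10% (0.19%) and 204 lower, and by unadjusted p under 0.05 the counts were 1011 and 1246. FN1 had a log2 fold change against control of 2.10 at 1%, 2.11 at 5% and 0.91 at 10%, and KRT10, a keratin of differentiated skin, 2.64, 0.89 and -0.29. The difference of 10% minus 5% was -1.20 ± 0.10 in FN1 and -1.19 ± 0.09 in KRT10. CFB and HABP2, a plasma protease, were likewise lower with 10% than with 5%, with differences of -1.14 and -1.21. These contrasts share the CSE 5% arrays with the comparison against control.

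**Figure D5:**
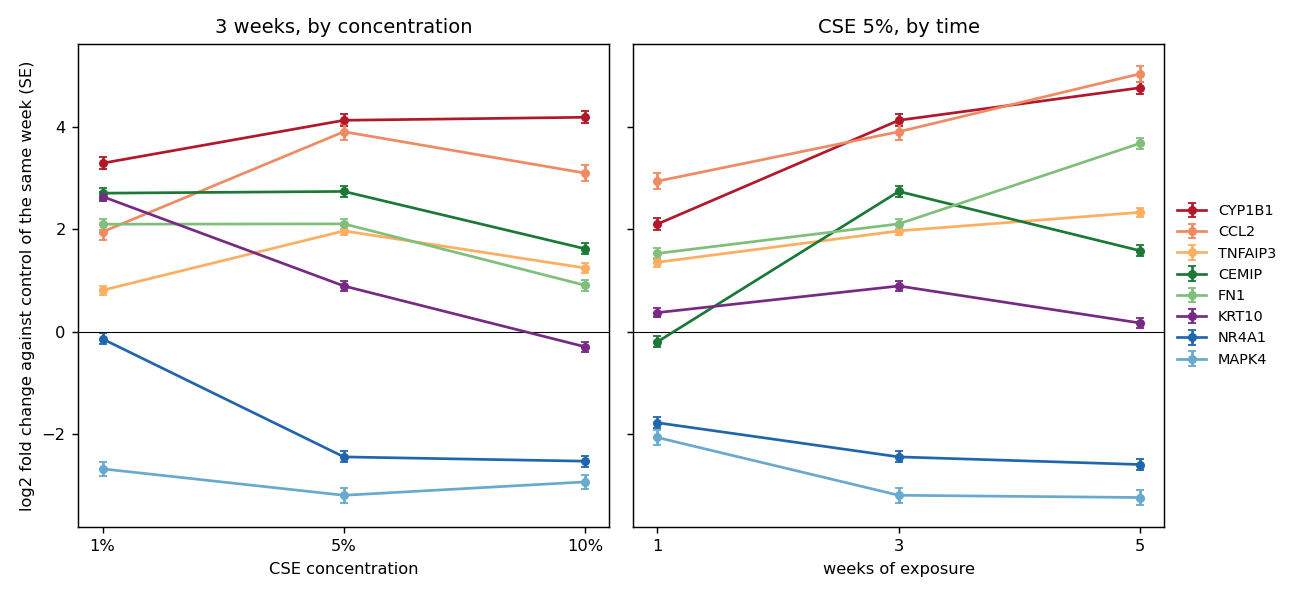
Log2 fold change against control of the same week (y axis, bars are the standard error of the fit) for 8 genes by CSE concentration at 3 weeks (left) and by weeks at CSE 5% (right). NR4A1 has -0.14 at 1% and -2.44 at 5%, KRT10 declines with concentration, and FN1 and CCL2 are highest at 5 weeks.

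Among 173 measured miRNA genes 11 rose and 3 fell, and 2 were called, both higher, with a median log2 fold change of -0.01. These are smaller shares than over all genes, of which 12.8% rose, 12.5% fell and 1.66% were called higher. The array reads these genes through probes in the precursor, not the mature miRNA. MIR21, a miRNA abundant in injured and fibrotic lung, measured 10.70, 10.61 and 10.99 in CSE 5% cells, against 9.75, 9.79 and 9.54 in control cells, with no overlap (log2 fold change 1.07 ± 0.17, adjusted p = 2.6e-05). MIR181B1 measured 8.29, 8.11 and 8.38 in CSE 5% cells, against 6.49, 6.18 and 6.54 in control cells (log2 fold change 1.86 ± 0.28, adjusted p = 1.2e-05). Both were chosen after their values were seen. Their 5p mature sequences are shown, from RefSeq on GRCh38.p14, with the seed, bases 2 to 8, in capitals.
hsa-miR-21-5p: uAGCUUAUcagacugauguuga
hsa-miR-181b-5p: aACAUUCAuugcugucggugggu
The seeds AGCUUAU and ACAUUCA differ, so these miRNAs belong to different seed families.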

How the data were processed

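RNA of A549 cells was hybridized to 36 whole-transcript arrays of Affymetrix (Human Gene 1.0 ST), with 3 in every one of 12 groups. The authors corrected the signals for background and normalized them with RMA (oligo package), and deposited log2 values per transcript cluster, used here as given. The R version in the submitters' processing notes is 2.11.0, and no genome build is given in the sources used here. This step makes array distributions alike, so a shift of most genes would be removed. The files used give no detection calls.

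Of 33297 transcript clusters 19460 had 1 symbol, 1754 several and 12083 none. The 18417 genes were each read from their brightest cluster, as 769 had several. A mean per group was fitted over all arrays with limma 3.58.1 in R 4.3.3, with a prior proportion of 0.01 and Benjamini-Hochberg adjustment over all clusters. The number of arrays limits the precision, and the median standard error was 0.11. The steps were tested on simulated data. Members and lists were chosen with earlier results of these data known. Named are the 15 genes per direction with the largest change, from each list the 6 members or fewer with the lowest p, genes the study names and at most 5 per direction of the other contrasts. Other list members and both miRNAs are named as examples chosen after their values were seen. Alternatives covered thresholds, arrays fitted, replicate block, normalization, centring, weights, variance, cluster choice, controls and arrays left out. One gene of the TGF-beta list is not reported here.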

Additional observations from a re-analysis of the deposited data

Results flagged for a closer look

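The effect of CSE 5% differed between times by a test of the difference itself, each effect being taken against the control of the same week. Between 3 weeks and 1 week it differed in 112 genes, and between 5 and 3 weeks in 353. The second number moved between 127 and 571 with single arrays left out, and both contrasts share the 3-week arrays.

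Of the genes in the report, those with a higher effect at 3 weeks than at 1 week, as a log2 difference, were CEMIP 2.93, CDH6 2.28, CYP1B1 2.02, PLA2R1 1.93, MRAP2 1.89, CYP3A5 1.54, ITGB8 1.47, NR5A2 1.41, MMP2 1.27, C3 1.26, MMP7 1.24, AQP3 1.16, ITGB6 1.04, CFB 1.04, PLEKHH2 1.04 and TIPARP 1.03. Those with a lower effect were PHGDH -2.16, NUPR1 -2.01, MT1X -1.44, NR4A3 -1.37, DUSP1 -1.23, KLF4 -1.13 and MAPK4 -1.13.

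Between 5 and 3 weeks the log2 difference was positive in CDK1 1.98, FN1 1.57, IFNGR1 1.28, NAALADL2 1.24, CCL2 1.13 and NR5A2 1.05. It was negative in NR1D1 -1.26, EGR1 -1.22, CEMIP -1.16 and AQP3 -1.08. AQP3 and CEMIP thus had their largest change against control at 3 weeks among the 3 times.

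No group of these comparisons had more than 3 arrays, so single arrays were not tested as outliers.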

How the results depend on the processing

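The counts of 305 genes called higher and 142 called lower ranged from 271 to 338 and from 122 to 176 when each of the 6 arrays was left out. They were 318 and 135 in a fit of these 6 arrays, 313 and 143 after cyclic loess, 320 and 153 with array weights, and 452 and 102 after centring on housekeeping changes, which gave 3875 genes higher and 1248 lower by adjusted p. The number of genes whose effect differed between 5 and 3 weeks was 105 with B above 3, and between 127 and 571 with 1 array left out; it was also 184 and 228 without control replicate 1 or 3 of week 3, and 221 without CSE 5% replicate 2. The number that differed between CSE 5% and CSE 1% lay between 45 and 93 with 1 array left out, highest without CSE 1% replicate 1. For 3 weeks against 1 week the range was 88 to 157, and for 10% against 5% it was 11 to 21.

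Whether replicate numbers paired the samples could not be decided. Deviations of same-numbered arrays correlated at 0.0714, 0.148 and -0.186, and those of differently numbered arrays at between -0.281 and 0.26. With the replicate block 303 genes were called higher and 142 lower, and the other contrasts gave 111, 308, 58 and 16 genes, against 112, 353, 59 and 16.

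Of 132 named genes past the test 123 remained so under every alternative run. CDK1 reversed to 0.137 (adjusted p = 0.83) when the control arrays of 1 and 3 weeks were one group, where MCM5 (-0.083) and MT1X (-0.416) also did not pass. ACTA2 did not pass after housekeeping centring, SLC7A11 and SMAD7 without single arrays, KRT18 in 2, NQO1 in 9 and KRT8 in 10 of 18 alternatives. AHR and PHGDH, not past the test in the report, each passed in 6 alternatives, at 0.385 and -0.581 in a fit of these 6 arrays, and PHGDH was -1.577 with controls of 1 and 3 weeks as one group. ISG15 passed in 4, CYP1A2 in 2, and HMOX1, MMP9 and NUPR1 in 1 each. With the controls of 1 and 3 weeks as one group, 3371 of all 18417 genes fell, against 2305 with the 3-week controls alone. Members that fell were 5 each of 30 interferon-stimulated, 25 mesenchymal, 19 EMT regulator, 18 ERK pathway and 24 junction genes. They were 4 each of 16 complement and 22 collagen genes. The causes were not tested.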

Other observations

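Some other genes are given as values only, gathered after their values were seen and without a test of their group. Enzymes that add sialic acid to glycans moved both ways. ST8SIA4 measured 10.81, 10.61 and 10.83 in CSE 5% cells, against 8.37, 7.71 and 8.43 in control cells, ST3GAL1 had a log2 fold change of 2.27 ± 0.10 and ST3GAL5 of 1.46 ± 0.10. ST6GAL2 measured 8.63, 8.60 and 8.52 in CSE 5% cells, against 10.95, 10.88 and 10.78 in control cells, while ST6GAL1 had 0.17 (adjusted p = 0.26).

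Enzymes of amino acid, urea and polyamine metabolism were among the genes called lower. CPS1, which makes carbamoyl phosphate for the urea cycle, measured 11.01, 10.86 and 11.15 in CSE 5% cells, against 12.83, 12.68 and 12.57 in control cells, with no overlap. CTH, an enzyme of cysteine synthesis, had a log2 fold change of -1.65 ± 0.13, ODC1, the first enzyme of polyamine synthesis, -1.51 ± 0.13, and ASS1 of the urea cycle -1.34 ± 0.09.

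Genes of cilia were among those called higher. DNAH5, a dynein of motile cilia, measured 7.27, 6.94 and 7.29 in CSE 5% cells, against 5.18, 5.33 and 5.23 in control cells. DYNC2H1, a dynein of transport within cilia, had a log2 fold change of 1.49 ± 0.26 and KIF3A 1.28 ± 0.23. In DYNC2H1 replicate 2 was the lowest array of both groups, as in the list of long transcripts. The same held for FAM161A, DCDC2, CCDC146 and AGBL2, also called higher. In DNAH5 replicate 2 was the lowest of the CSE 5% arrays but the highest of the control arrays.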
